A study of Rattus norvegicus with 3 samples.

Results

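Ctrl-only H3K14Ac regions were peaks of the ctrl library of P9 Gunn rat cerebellum (Cll) at which no peak was called in either hyperbilirubinemic (jj) library. They were chosen by position: a ctrl peak on chromosomes 1 to 20 or X of the rn4 build was taken when it did not share 1 bp with any peak of jj replicate 1 or jj replicate 2. The rule took 5466 of the 20871 ctrl peaks on these chromosomes (26.2%), and the whole ctrl list held 22026 peaks. The same rule took 13642 of 29428 peaks of jj replicate 1 without a peak in the other libraries (46.4%) and 1512 of 13537 peaks of jj replicate 2 (11.2%). These numbers follow from the rule and nothing was read from them.

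All animals were P9 Gunn rats (Hds Blue:Gunn-UDPGTj), a strain whose jj pups are jaundiced because they cannot conjugate bilirubin. Library jj replicate 1 came from 1 hyperbilirubinemic pup, jj replicate 2 from a pool of 3 hyperbilirubinemic pups and ctrl from a pool of 3 normobilirubinemic littermates. Sequencing took 2 runs for jj and 1 run for ctrl, so condition and run cannot be told apart, and 1 jj library came from a single pup where ctrl was pooled. With 1 ctrl library there is no replicate of a ctrl-only region, and no difference between jj and ctrl was tested.

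Acetylation of lysine 14 neutralises a positive charge on the tail of histone H3 and is placed by histone acetyltransferases, mostly at promoters and enhancers of active genes. In the cerebellum of the first postnatal weeks, granule cell precursors still divide and migrate while Purkinje cells extend their dendrites. Whole Cll mixes these cells, so fewer cells carrying the mark and less of the mark per cell cannot be told apart. A peak is a stretch called above a limit, and a site without a peak may still be acetylated below it.

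Of the ctrl peaks, 11210 (53.7%) overlapped a peak of both jj libraries, 4035 (19.3%) a peak of jj replicate 1 alone and 160 (0.767%) a peak of jj replicate 2 alone, which left the 5466 ctrl-only regions. The peaks of all libraries merged into 36559 regions, of which 11189 were called in all 3 and covered 10.2 Mb. The ctrl-only regions lay between these shared regions, and 5384 of them had no other ctrl-only region within 5 kb. Their median width was 353 bp, the median gap to the nearest other ctrl-only region was 138 kb, and the median gap to the nearest region called in all 3 libraries was 214 kb. Within 5 kb of such a region, called its flank here, lay 52 of the 5466 (0.951%), and the other 5414 were distal.

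The ctrl-only regions were weak peaks of their own list. MACS2 gives each peak a fold, the coverage over that expected at the site in the same library, and a −log10 q, its significance after correction for the number of sites. The median −log10 q of the ctrl-only regions was 1.41 (quartiles 1.19 and 1.75), just above the lowest value of the list, 1.01. The ctrl peaks with a peak of another library had a median of 9.55. The median fold was 3.39 in the ctrl-only regions and 6.54 in the other ctrl peaks. The jj replicate 1-only regions had a median −log10 q of 1.62 and a median fold of 3.43. In jj replicate 1 peaks with a peak of another library these were 15.6 and 7.56. The jj replicate 2-only regions had medians of 1.77 and 3.66, against 7.07 and 6.18 in jj replicate 2 peaks with a peak of another library. The range of −log10 q thus differed between lists, and an equal −log10 q need not mean an equal strength in each.

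The share of ctrl peaks that were ctrl-only fell at each step of −log10 q. It was 76.9% of the 4087 ctrl peaks from 1 to 1.5, 65.4% of 2305 from 1.5 to 2 and 40.2% of 1691 from 2 to 3. It was 5.98% of 1924 from 3 to 5, 0.582% of 3436 from 5 to 10 and 0.0404% of 7428 at 10 or more, which is 3 regions. In jj replicate 1 the same share fell later, from 89.4% in the lowest step to 56.1% from 3 to 5, 25.6% from 5 to 10 and 1.10% at 10 or more. Thus 138 ctrl-only regions and 2118 jj replicate 1-only regions had a −log10 q of 3 or more.

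The lists hold no read totals. The commonest combination of fold and −log10 p in a list gives back its background coverage, which was 0.539 fragments per position in ctrl, 0.589 in jj replicate 1 and 0.345 in jj replicate 2. That combination stood for a height of 4 fragments in each list, and 1012 of the ctrl-only regions (18.5%) carried it exactly. If the background of the list held at each site, the fold gives back a height averaged over the peak. Its median was 4.21 fragments in the ctrl-only regions, against 7.08 for all ctrl peaks. On this measure 98.5% of the ctrl-only regions were at 6 fragments or fewer. The corresponding share was 86.6% for the jj replicate 1-only regions. Most ctrl-only regions thus averaged a few fragments on this measure, which is too low where the expected coverage exceeded the background of the list. Far fewer ctrl peaks had their only partner in jj replicate 2, the library of lowest coverage, than in jj replicate 1. The part of coverage in the number of ctrl-only regions was not tested.

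The ctrl-only regions were narrow. Their median width of 353 bp (349 to 358, 95% binomial interval of the median) lay near the shortest ctrl peak, 252 bp, with quartiles of 291 and 495 bp, and 1 in 10 were wider than 866 bp. All intervals here cover counting error only, since regions of 1 library are not replicates. The jj replicate 1-only regions had a median of 436 bp (432 to 440) in a list whose shortest peak was 287 bp, so the medians were 1.40 and 1.52 times the shortest peak of their lists. For jj replicate 2-only regions these were 338 bp and 1.30 times.

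Width was also set beside strength. The median width of ctrl-only regions was 362 bp at a −log10 q from 1 to 1.5, 347 bp from 1.5 to 2, 343 bp from 2 to 3, 350 bp from 3 to 5, 345.5 bp from 5 to 10 (20 regions) and 278 bp at 10 or more (3 regions). In the jj replicate 1-only regions it was 482, 427, 405, 405, 435 and 484.5 bp over the same steps. In both sets the median fell over the first 3 steps, and in the jj replicate 1-only regions it was wider again at 5 or more, where few ctrl-only regions are left to compare. Ctrl peaks with a −log10 q under 3 that had a peak in another library were 395 bp wide in the median, against 353.5 bp for the ctrl-only regions under the same limit. In jj replicate 1 these medians were 521 and 441 bp. In both lists a peak without a partner was thus narrower in the median than a peak of the same range of −log10 q with one, although a wider peak also has more bases with which to meet a peak of another library.

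The 3 widest ctrl-only regions were chr16:32386161-32388462 (2302 bp, fold 3.56, −log10 q 1.65), chr15:48322918-48324820 (1903 bp, fold 3.21, −log10 q 1.19) and chr8:84945381-84947277 (1897 bp, fold 3.24, −log10 q 1.21). All were distal, 58.2, 619 and 27.3 kb from a region called in all 3 libraries, and their folds were below the median of the ctrl-only regions in 2 of the 3. The widest jj replicate 1-only region, chr6:141021420-141024719, measured 3300 bp and had a −log10 q of 1.09.

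Spacing was measured as the gap to the nearest other region of the same set. For ctrl-only regions its median was 138 kb (130 to 143), its quartiles 49.0 and 305 kb and its largest value 3.93 Mb. With jj replicate 1 left out, when more ctrl peaks have no jj peak, the median was 85749 bp. The chromosomes held 1 ctrl-only region per 497 kb on average, so the median gap was 0.277 of the mean length per region. This ratio was 0.287 for the jj replicate 1-only regions, whose median gap was 57.1 kb, 0.283 for the jj replicate 2-only regions (510 kb) and 0.289 for all ctrl peaks (37.7 kb). It was 0.316 for all jj replicate 1 peaks and 0.241 for all jj replicate 2 peaks. The ratio of the ctrl-only regions lay between these and close to those of the other sets without a partner.

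The ctrl-only regions formed no run longer than a pair at gaps of up to 5 kb. Of them, 82 (1.5%) had another ctrl-only region within 5 kb, making 41 pairs and no longer run, and the other 5384 stood alone at that distance. Within 50 kb, 1383 (25.3%) had another. With 1 region per 497 kb, longer runs at 5 kb would be rare by number alone, and nothing was read from their absence. Among jj replicate 1-only regions, 399 (2.92%) had another of their set within 5 kb, in 195 pairs and 3 runs of 3. That set was denser, with 5.02 regions per Mb against 2.01 for ctrl-only regions, and a denser set has closer neighbours by number alone. The smallest gap between ctrl-only regions was 1028 bp. The pair spanning the fewest bases from its first to its last, 1782 bp, was chr18:21369449-21369768 with chr18:21370865-21371230, 1096 bp apart, with −log10 q of 1.05 and 1.06. Next by span were chr18:2994181-2994467 with chr18:2995705-2995975 (1795 bp, gap 1237 bp) and X:52905885-52906203 with X:52907435-52907727 (1843 bp, gap 1231 bp). In the ctrl list as a whole no 2 peaks were closer than 1009 bp, and in the jj lists none were closer than 1149 and 1045 bp, so closer pairs could not be seen in any set.

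Few ctrl-only regions lay in a flank. The 52 flank regions were 0.951% (0.711 to 1.25, 95% exact binomial interval) of the set, whereas 3.98% of the chromosome length outside the regions called in all 3 libraries lay within 5 kb of one. Of the 9610 ctrl peaks outside these shared regions, 298 (3.1%) were in a flank, and of the 4144 with a peak in only 1 jj library, 246 (5.94%). At a −log10 q under 3, the flank share was 0.751% (40 of 5328) in the ctrl-only regions and 2.91% (66 of 2265; 2.26 to 3.69) in ctrl peaks with 1 jj partner. Because peaks of 1 list do not lie closer than about 1 kb, the first kb beside a shared region was nearly closed to ctrl-only regions, and 3 of the 52 lay there. With jj replicate 1 left out, 9501 ctrl peaks had no jj peak and 3.43% of them were in a flank, and with jj replicate 2 left out these were 5626 and 1.62%, regions called in both remaining libraries standing for those called in all 3.

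The density of ctrl-only regions rose with distance from the regions called in all 3 libraries. It was 0.574 per Mb from 1 to 5 kb (49 regions), 1.30 from 5 to 20 kb (352), 1.66 from 20 to 100 kb (1290), 2.27 from 100 to 500 kb (2419) and 2.79 beyond 500 kb (1353). The jj replicate 1-only regions also rose, from 2.58 per Mb at 1 to 5 kb to 6.21 beyond 500 kb, and the jj replicate 2-only regions from 0.129 to 0.813. From the nearest to the farthest of these bands, the density rose in each set, most steeply in the jj replicate 2-only and ctrl-only regions. The median −log10 q of ctrl-only regions was 1.73 at 1 to 5 kb and 1.40 at 100 to 500 kb, and 12 of the 52 flank regions were among the 138 at 3 or more. In jj replicate 1-only regions the median went from 4.72 to 1.55.

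The flank share of the jj replicate 1-only regions was 1.61% (220 of 13642; 1.41 to 1.84), above that of the ctrl-only regions (without jj replicate 2 it was 2.67%). This order was not the same at each strength. With both sets limited to a −log10 q under 3, the share was 0.751% (0.537 to 1.02) in the ctrl-only and 0.495% (0.375 to 0.640) in the jj replicate 1-only regions, with overlapping intervals. Within this range the sets stood apart from 1 to 1.5 (0.764% and 0.244%) and were close from 1.5 to 2 (0.464% and 0.424%) and from 2 to 3 (1.33% and 1.24%). At 3 or more it was 8.70% (12 of 138; 4.57 to 14.7) and 7.70% (163 of 2118; 6.60 to 8.91). From 3 to 5 the ctrl-only share was the higher, 9.57% (11 of 115) against 5.78%. From 5 to 10 it was the lower, 5.0% (1 of 20) against 10.2%, at 10 or more it was 0 of 3 against 7.76%, and with −log10 q of at least 3 asked of every list it was 4.55% against 6.14%. The median gap to a region called in all 3 libraries was 214 kb (205 to 224) for ctrl-only and 180 kb (175 to 186) for jj replicate 1-only regions, 218 and 216 kb under a −log10 q of 3, and 113 and 48.2 kb at 3 or more. A limit on −log10 q may not ask the same coverage of flank and distal regions. The part of peak strength in the difference between the sets was not tested.

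Ctrl-only flank regions were narrower than distal ones in the median, with intervals that overlapped. The order was the same in jj replicate 1-only regions (373 and 438 bp) and the other way in jj replicate 2-only regions (347 and 338 bp). The 52 ctrl-only flank regions had a median width of 317 bp (290 to 352) and a median gap of 2.67 kb to the shared region, and the distal ones a median width of 354 bp (350 to 359). The median fold was 3.39 in both. The median −log10 q was 1.56 (1.39 to 2.36) in the flank and 1.41 (1.39 to 1.42) in the distal regions. In 7 of the 52 the fold was below that of every distal ctrl-only region, the lowest distal fold being 2.93 and the lowest flank fold 1.79. MACS2 can take the expected coverage from the surroundings of a site, so folds of flank and distal regions may not be on one scale. The options used are not known, and this was not tested. The ctrl-only flank regions with the highest −log10 q were chr1:109046031-109046284 (fold 4.98, −log10 q 5.06), chr20:25103370-25103659 (4.45 and 4.60) and chr1:250193506-250193898 (4.50 and 4.45), at gaps of 1150, 1985 and 2359 bp from a region called in all 3 libraries.

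A larger share of ctrl-only regions lay near jj peaks without a partner than the share of length around those peaks. Both sets were chosen by these positions and the rule keeps near misses, so nothing about the libraries was read from this. The median gap to the nearest jj peak was 26.8 kb, being 29.6 kb for jj replicate 1 and 110 kb for jj replicate 2, and 891 regions (16.3%) had a jj peak within 5 kb. The share with a peak of either other library within 5 kb was 9.08% in jj replicate 1-only and 22.9% in jj replicate 2-only regions. Of the ctrl-only regions, 689 (12.6%; 11.7 to 13.5) lay within 5 kb of a jj replicate 1-only region, although these with 5 kb on each side took up 5.21% of the chromosome length, a ratio of 2.42. Around the jj replicate 2-only regions, 116 ctrl-only regions (2.12%) lay within 5 kb, where the length was 0.578%, a ratio of 3.67 (3.04 to 4.40).

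The density was highest at short range, where the rule itself keeps calls that narrowly missed each other. The same was seen between the jj-only regions of the jj libraries. Ctrl-only regions reached 11.5 per Mb within 1 kb of a jj replicate 1-only region (313 regions), 3.53 from 1 to 5 kb, 2.55 from 5 to 20 kb, 2.16 from 20 to 100 kb and 1.38 from 100 to 500 kb, against 2.01 over the chromosomes. The jj replicate 2-only regions, from the other jj library, lay within 5 kb of a jj replicate 1-only region in 13.96% (12.2 to 15.8), a ratio of 2.68 (2.35 to 3.03), whose interval overlaps that of the ctrl-only regions, 2.25 to 2.59. Around the jj replicate 2-only regions, the ratio of the jj replicate 1-only regions was 2.73 (2.38 to 3.11), below the 3.67 of the ctrl-only regions. Sites where peaks of the jj libraries overlap were removed by the rule before these gaps were measured. The ratios therefore cannot show whether the jj libraries are more like each other than like ctrl, and nothing was read from their order. All these sets were chosen against the same 3 lists, and a short gap also counts sites where 2 weak calls missed each other by a few bases.

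At the edge of the rule the difference between a ctrl-only region and a shared peak was a few bases. Just inside, chr14:60523686-60524001 (−log10 q 1.19) had a gap of 0 bp to a jj replicate 2 peak, X:60485148-60486184 (1.70) a gap of 2 bp to one, and chr5:107616244-107616572 (1.45) a gap of 2 bp to a jj replicate 1 peak. Just outside, chr7:68921062-68921430 (−log10 q 2.78) overlapped a jj replicate 2 peak by 1 bp, and chr10:32120633-32120985 (2.34) and chr1:220792183-220792494 (2.80) a jj replicate 1 peak by 1 and 3 bp. In all, 85 ctrl-only regions had a jj peak within 100 bp, and 115 ctrl peaks were left out for an overlap of at most 100 bp. At the other end, the ctrl-only regions farthest from any jj peak were chr20:14889780-14890048 (517 kb), chr10:30284170-30284669 (514 kb) and chr10:19389019-19389398 (505 kb), with −log10 q of 2.20, 1.27 and 1.25.

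The 5 strongest ctrl-only regions were all distal, although of the 138 at a −log10 q of 3 or more a larger share lay in a flank (8.70%) than of the 5328 below 3 (0.751%). A limit of 3 may not ask the same coverage of flank and distal regions, and no stronger acetylation in the flanks was read from these shares. The highest −log10 q was 24.6, at chr13:38126337-38126605, a peak of 269 bp with a fold of 11.2 that lay 4.62 kb from a jj replicate 1 peak and 16.6 kb from a region called in all 3 libraries. Next were chr12:3114123-3114400 (−log10 q 14.6, fold 5.54) and chr12:7656606-7656902 (12.7, fold 8.08), the latter 1.21 kb from a jj replicate 1 peak and 1.28 kb from a jj replicate 2 peak. Then came chr18:19192276-19192582 (9.59, fold 7.75) and chr10:61939465-61939717 (9.30, fold 7.36). These 5 regions were 253 to 307 bp wide, all narrower than the median ctrl-only region, and 4 of them lay within 25 kb of a region called in all 3 libraries, the exception being that on chromosome 18 at 1.58 Mb. The strongest jj replicate 1-only region, chr9:1630244-1630883, had a −log10 q of 33.7 and was 640 bp wide. Of the 138 ctrl-only regions at 3 or more, 31 (22.5%; 15.8 to 30.3) had a jj peak within 5 kb, against 860 of 5328 (16.1%; 15.2 to 17.2) below 3.

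The ctrl-only regions tended to be denser on chromosomes with fewer shared regions. Chromosome X held 481 (2.99 per Mb), chromosome 2 held 676 (2.62 per Mb) and chromosome 13 held 239 (2.15 per Mb), and the lowest densities were on chromosomes 10 (129, 1.17 per Mb), 12 (61, 1.30 per Mb) and 19 (87, 1.47 per Mb). Regions called in all 3 libraries went the other way, with 1.62 per Mb on X and 7.90 and 7.53 per Mb on chromosomes 10 and 12. Thus 50.7% of the 948 ctrl peaks on X were ctrl-only, against 10.3% of the 1247 on chromosome 10. Across the 21 chromosomes the density of ctrl-only regions and that of shared regions had r = −0.81 (rho = −0.70), and without X r = −0.77 (rho = −0.65, n = 20). Some chromosomes departed from this order. Chromosome 15 had 2.92 shared and 1.78 ctrl-only regions per Mb. Chromosomes 1 and 5 had 4.78 and 4.67 shared regions per Mb and 2.12 and 2.10 ctrl-only regions per Mb.

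The jj replicate 1-only regions were spread over the chromosomes in nearly the same way. They too were densest on X (7.42 per Mb) and sparsest on chromosome 10 (3.29 per Mb), and their number per ctrl-only region ranged from 2.26 on chromosome 2 to 2.91 on chromosome 19, around 2.50 overall. The densities of both sets had r = 0.94 (rho = 0.90) over 21 chromosomes. These are descriptions: chromosomes differ in gene density and in the share of sequence that reads can be placed on, both sets were chosen against the same 3 lists, and the sex of the animals in each library was not used here. X held 8.80% of ctrl-only, 8.74% of jj replicate 1-only and 7.34% of jj replicate 2-only regions, on 5.91% of the chromosome length and with 2.32% of the regions called in all 3 libraries.

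In windows of 1 Mb, 2124 of 2710 (78.4%) held a ctrl-only region. Windows with no region called in all 3 libraries (487) held 2.78 ctrl-only regions on average, those with 1 to 4 (1343) held 2.18, those with 5 to 9 (589) held 1.47 and those with 10 or more (291) held 0.979. The jj replicate 1-only regions went from 6.28 to 5.24 and 3.81 and were 4.27 in the last group, so they did not fall further in the windows richest in shared regions. Per window, ctrl-only and shared regions had r = −0.27 (rho = −0.36, n = 2710), and ctrl-only and jj replicate 1-only regions r = 0.45 (rho = 0.46). The highest counts were 12 ctrl-only regions among 44 ctrl peaks in the first Mb of chromosome 2, 11 among 12 ctrl peaks from 88 to 89 Mb of chromosome 5, and 11 among 12 from 39 to 40 Mb of chromosome 18. The first of these windows also held 25 regions called in all 3 libraries and 11 jj replicate 1-only regions, whereas the other windows held 0 and 1 shared regions and 8 and 13 jj replicate 1-only regions.

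The jj lists called with ctrl as control were set beside the ctrl-only regions by position. Of the 12014 peaks of jj replicate 1 on these chromosomes, 1 overlapped a ctrl-only region, chr17:49306746-49307597 (fold 1.92 and −log10 q 2.37 in ctrl), a flank region 1591 bp from a region called in all 3 libraries. Of the 125 peaks of jj replicate 2, 0 did. Since the rule left out ctrl peaks that overlap a jj peak of the own lists, these counts nearly follow from it and nothing was read from them. No list with jj as the control of ctrl was used here, so a lower coverage in jj than in ctrl at the ctrl-only regions was not measured.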

How the data were processed

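H3K14Ac ChIP-Seq of P9 Cll was read from the deposited peak lists of 3 libraries. Before deposit, the authors aligned reads with bowtie2 to the rn4 build, removed duplicates and ran MACS2 for broad peaks library by library, pooled animals together. Versions and options are not given in the sources used here. The deposited fold enrichment is a ratio over the coverage expected at the site, read here as an average over the peak. The authors' significance columns hold −log10 of the p-value and of the q-value, each a MACS2 average over the peak. Where jj peaks had been called with ctrl as control, positions alone were used, since the other columns are the authors' comparisons.

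Positions count from 1. Gaps, overlaps of at least 1 bp, merged regions, exact binomial (Clopper-Pearson) and binomial median intervals at 95%, and the background coverage were computed with Python 3.11.15, numpy 2.4.6, pandas 2.3.3 and scipy 1.17.1, and the functions were tested on simulated data. For the background, the fold was read as (height + 1) / (background + 1), and the p-value as a Poisson upper tail beyond the height. A chromosome was taken to end at its last peak. No difference was tested. Regions named are the 5 of highest −log10 q, the top 3 in flank and distal positions, the 3 widest, the 3 farthest from and nearest to a jj peak, the 3 left out at the smallest overlap, the 3 pairs of smallest span (pairs tied as longest runs were ordered by span, where the rule named fold), the 3 fullest windows, and for jj replicate 1-only regions the strongest and widest. The region overlapping a jj peak called with ctrl as the control was named after its values were seen. The regions and lists were chosen with earlier results of these data known. Genes and sequences of the regions were not analysed here, as no rn4 genome or annotation was used. The alternatives were other rules for overlap, flank and −log10 q, all sequences of the build, and each jj library left out. The bands of distance around jj-only regions and some limits of 3 on the ctrl-only regions' −log10 q were added after seeing the data.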

Additional observations from a re-analysis of the deposited data

How the results depend on the processing

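Of 49 alternative values computed for 6 results, 22 stayed within 1.5 times (counts) or within the 95% interval of the reported value and 27 did not; none of the results has a sign that can turn. The number of ctrl-only regions was 138 with ctrl peaks limited to a −log10 q of at least 3 and 286 with that limit in every list. Under the same limits the flank share of ctrl-only regions was 8.70% and 4.55%, their median width 344.5 and 391.5 bp and their median spacing 7734100 and 2702448 bp. With the limit in every list, the jj replicate 1-only regions had a flank share of 6.14% and a median width of 444 bp, and with only those under 3 kept, 0.495% and 441 bp. At 3 or more in jj replicate 1 alone, their median width was 424 bp. Fewer peaks enter under a limit by construction. A flank of 1 kb held 0.0549% of ctrl-only and 0% of jj replicate 1-only regions, and a flank of 10 kb 3.09% and 4.91%. When regions called in all 3 libraries had to reach a −log10 q of 10 in ctrl, the shares fell to 0.274% and 0.755%. The median spacing was 126886 bp with an overlap of 50% of the shorter peak and 148336 bp with a jj peak within 1 kb counted as shared. Leaving out one jj library at a time gave 5626 to 9501 ctrl-only regions, the larger number without jj replicate 1, with a flank share of 1.62% to 3.43%, a median width of 355 to 371 bp and a median spacing of 85749 to 131815 bp. The flank share of jj replicate 1-only regions was 2.67% without jj replicate 2, and these regions have no value without jj replicate 1. In those settings a region called in both remaining libraries stood for one called in all 3, so more regions count as shared. Chosen after seeing the data were the limit under 3 on ctrl-only regions and, for the flank shares, all sequences of the build, which stayed within the intervals, and the flank share of 8.70%, which did not. No paired analysis was possible because ctrl is 1 library. The lists give no read totals, so the part of depth in these values was not tested.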
